A study of Mus musculus with 12 samples.

Results

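Complement genes were followed in bone marrow-derived macrophages (BMDMs), which are macrophages grown from marrow cells with the growth factor M-CSF. The set held 9 genes of 32301 genes or transcripts on the array: the C1q chains *C1qa*, *C1qb* and *C1qc*, the C1 inhibitor *Serping1*, the central component *C3*, the alternative pathway genes *Cfb* and *Cfp*, and the anaphylatoxin receptors *C3ar1* and *C5ar1*. They were chosen by name, and their probes were found through the accession that the array design gives for each probe. All 9 genes had a matched probe, 11 probes in all, and every one of the 11 was well above background on all 12 arrays, so each member passed the filter on dim signals in each group.

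BMDMs came from C57BL/6 mice aged 8 weeks, either wild type (WT) or with *Keap1* deleted in myeloid cells by crossing *Keap1* flox/flox with LysM-Cre (KpCKO). Keap1 is the adaptor through which the transcription factor Nrf2 is degraded, so Nrf2 accumulates without it. LysM-Cre acts in the myeloid lineage only, and any other cell of the culture keeps *Keap1*. After 7 days of culture the cells were left untreated (Con), or received LPS with IFNγ (M1) or IL-4 (M2) for 6 h. The 6 groups had 2 arrays each, one from each of 2 cultures. One WT and one KpCKO mouse gave all 6 arrays of a culture, with male mice in culture 1 and female mice in culture 2, so that culture, mouse and sex cannot be told apart.

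The arrays were checked against their labels. For the stimuli, *Nos2* was well above background on the 4 M1 arrays only and *Retnla* on the 4 M2 arrays only. *Cxcl9* was highest on the M1 arrays, and *Arg1* and *Chil3* on the M2 arrays. The log2 level of *Retnla* differed between the KpCKO M2 arrays, at 2.60 in culture 1 and 6.23 in culture 2, with 5.18 and 6.11 in WT M2. In Con, the KpCKO less WT difference was −1.46 (log2) for *Keap1* and 3.23 for *Nqo1*, a classical Nrf2 target. The 75th percentile of the signal, which sets the scale of each array, reached 757 and 548 for WT M1 and 906 and 787 for KpCKO M1, while the remaining arrays had values between 966 and 1166, and all arrays of a stimulus shared a slide. Stimulus and slide therefore cannot be told apart, whereas the genotypes were compared within a slide. Of 8 macrophage markers 7 had a probe, all 7 were well above background on every array, and their summed linear level lay between 407 and 804 times the 75th percentile. KpCKO had the smaller sum in all 6 pairs of arrays, with log2 differences from −0.51 to −0.19, and the part of this in the values below was not tested. The summed levels of other cell types were between 22.8 and 54.4 for 7 stromal markers, 3.78 and 16.6 for 9 neutrophil markers, 0.32 and 2.32 for 6 dendritic markers, 0.03 and 3.18 for 4 T cell markers, and at most 0.13 for B and mast cells. The T cell marker *Cd3e* had no value on KpCKO M2 of culture 1, which gave the lowest T cell sum, or on WT M1 of culture 1. The highest T cell sums were those of M1, where *Lck* was 7.61 (log2) higher than in Con in WT. In RNA from a whole culture, fewer cells of a type and less RNA per cell cannot be told apart.

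Complement is a cascade of plasma proteins that marks microbes and dying cells for uptake. C1q, assembled from the A, B and C chains, recognises antibody and cell debris and starts the classical pathway through the proteases C1r and C1s, which the C1 inhibitor blocks. C3 is the point where all pathways meet; factor B supplies the protease of the alternative pathway and properdin stabilises it. The fragments C3a and C5a act on the receptors C3aR and C5aR1 of myeloid cells. Most plasma complement is made by the liver, but macrophages are a major source of C1q and properdin, and both macrophages and stromal cells make C3, factor B, C1r, C1s and C1 inhibitor when stimulated.

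Levels are log2 intensities relative to the 75th percentile of the array, and a difference of 1 is a change of 2-fold. *C1qa*, *C1qb* and *C1qc* were bright in all groups. *C1qa* measured 5.49 and 5.49 in WT Con, 6.08 and 6.01 in WT M1, and 5.65 and 5.80 in WT M2 (culture 1 and culture 2). In KpCKO it measured 4.26 and 3.87 in Con, 5.06 and 4.73 in M1, and 4.62 and 4.11 in M2. Every KpCKO array was below every WT array, whatever the stimulus. *C1qb* measured 6.56 and 6.64 in WT Con against 6.18 and 5.91 in KpCKO Con, 7.34 and 7.48 against 6.81 and 6.67 in M1, and 6.59 and 6.84 against 6.24 and 6.10 in M2. *C1qc* measured 7.50 and 7.45 against 7.15 and 6.77 in Con, 8.10 and 8.20 against 7.73 and 7.49 in M1, and 7.50 and 7.56 against 7.41 and 6.98 in M2. Within each stimulus the 2 KpCKO arrays lay below the 2 WT arrays for *C1qb* and *C1qc* as well.

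The 250 bases upstream of the start of *C1qb* and of *C1qc* (RefSeq, GRCm38.p6, minus strand, chr4:136886201-136886450 and chr4:136892915-136893164) are shown because these neighbouring genes of chromosome 4 had the most similar pattern among the members. Capitals mark matches to any of the motifs searched.
C1qb: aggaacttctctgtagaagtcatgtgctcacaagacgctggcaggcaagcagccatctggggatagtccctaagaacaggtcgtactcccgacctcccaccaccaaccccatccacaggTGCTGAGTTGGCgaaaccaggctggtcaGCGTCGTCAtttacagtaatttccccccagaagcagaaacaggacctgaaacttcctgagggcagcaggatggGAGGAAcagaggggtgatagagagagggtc
C1qc: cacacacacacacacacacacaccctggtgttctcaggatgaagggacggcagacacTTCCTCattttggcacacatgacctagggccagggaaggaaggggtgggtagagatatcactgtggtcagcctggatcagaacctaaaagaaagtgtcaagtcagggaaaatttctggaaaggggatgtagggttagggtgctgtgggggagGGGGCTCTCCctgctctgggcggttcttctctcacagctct
The motifs were searched on both strands of the window from 250 bases before to 50 bases after the start. They were the antioxidant responsive element bound by Nrf2 with small Maf proteins (TGACNNNGC or TGAGNNNGC), the core Maf recognition element (TGCTGA), the PU.1 core (GAGGAA), the interferon-stimulated response element (GAAANNGAA), the gamma-activated site (TTCNNNGAA) and the NF-κB consensus. The *C1qb* window held a core Maf element whose last 3 bases were also the first of an antioxidant responsive element match, TGAGTTGGC, that began 128 bases before the start. A second antioxidant responsive element match on the opposite strand (GCGTCGTCA as printed) began 103 bases before the start, and a PU.1 core 30 bases before it. The *C1qc* window held an NF-κB match, GGGGCTCTCC, that began 41 bases before the start, and a PU.1 core on the opposite strand. Of 32851 promoter windows in the table, 27.8% held an antioxidant responsive element match, 19.5% a core Maf element, 28.3% a PU.1 core and 8.46% an NF-κB match. A match describes letters and not a bound site.

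In Con, *C1qa* was lower in KpCKO by 2.69-fold, a log2 difference of −1.43 ± 0.17 (SE, n = 2 arrays per group, limma adjusted p = 0.012). In M2 the difference was −1.36 ± 0.17 (adjusted p = 0.013), and in M1 it was −1.15 ± 0.17 (adjusted p = 0.0096). The *C1qb* difference was −0.67 ± 0.15 in M1 (adjusted p = 0.029), −0.55 ± 0.15 in Con (adjusted p = 0.13) and −0.55 ± 0.15 in M2 (adjusted p = 0.15), so only the M1 value passed the test. That call was lost with quantile normalization (−0.44, adjusted p = 0.053), normexp (−0.59, adjusted p = 0.052) and unscaled intensities (−0.28, adjusted p = 0.20). None of the *C1qc* differences passed it within a stimulus, at −0.52, −0.54 and −0.33 in Con, M1 and M2. Averaged over the 3 stimuli, all 3 chains were lower in KpCKO, *C1qa* by 2.48-fold (adjusted p = 0.000501), *C1qb* by 1.504-fold (adjusted p = 0.0052) and *C1qc* by 1.38-fold (adjusted p = 0.017). The tests of these averages took the 3 arrays of a mouse as independent, while each genotype had 2 mice. By culture the averages were −1.10 and −1.53 for *C1qa*, −0.42 and −0.76 for *C1qb*, and −0.27 and −0.66 for *C1qc*. Each chain contributes equally to the assembled protein, yet the *C1qa* difference exceeded that of *C1qb* in all 6 pairs of arrays, by 0.48 to 0.94 on the log2 scale, and that of *C1qc* by 0.58 to 1.11. These gaps compare differences of separate probes and were not tested. Without WT Con, WT M2 or KpCKO Con of culture 2, the mean *C1qc* difference no longer passed the test (−0.44, −0.42 and −0.42, adjusted p 0.052 to 0.057).

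The plot of all 9 genes by array shows these levels beside those described next.

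**Figure D1:**
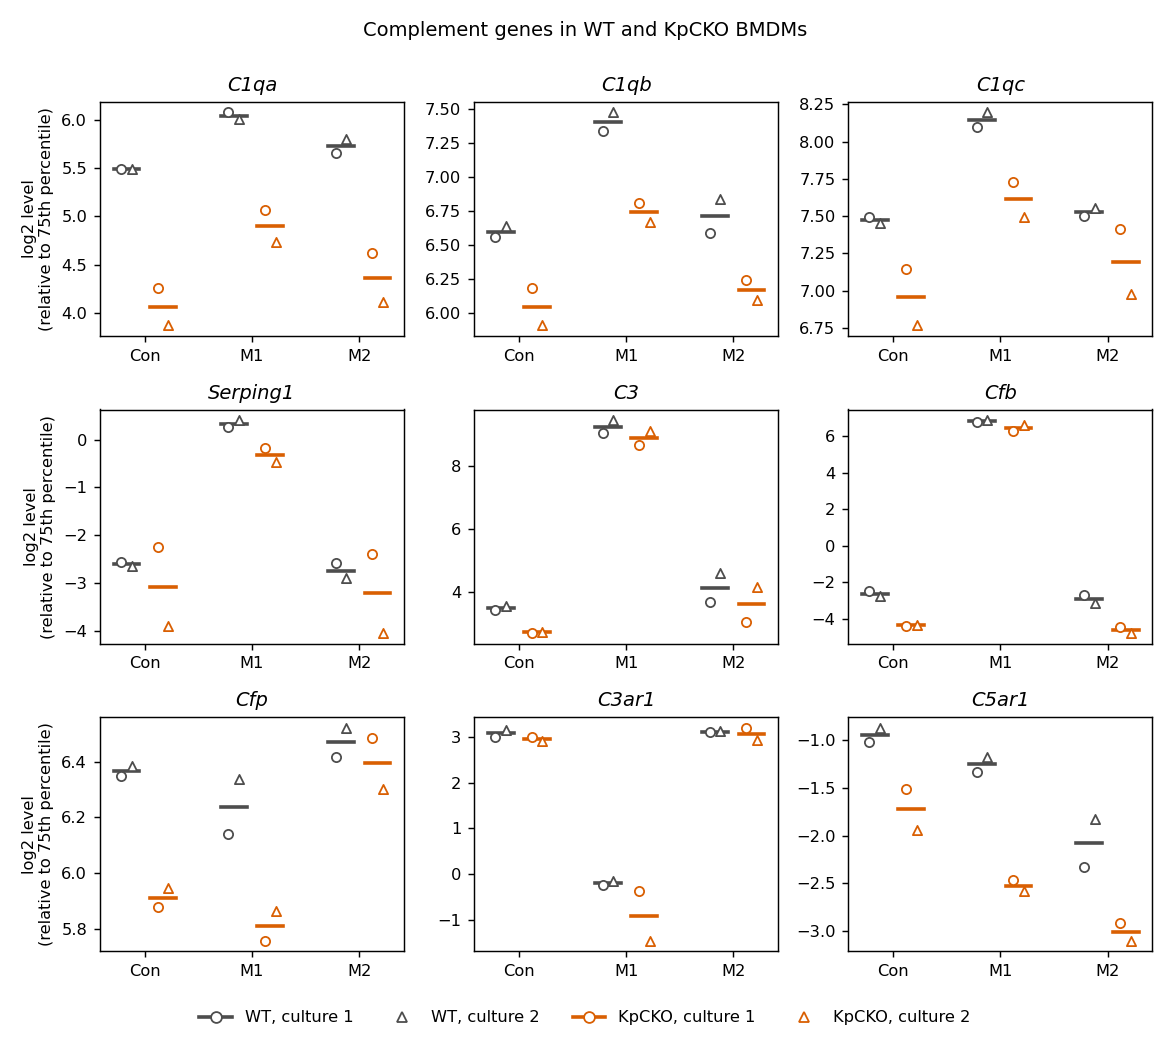
Level of each complement gene on each array (y axis, log2 intensity relative to the array's 75th percentile, a scale of its own in each panel) by stimulus (x axis), with WT in grey, KpCKO in orange, circles for culture 1, triangles for culture 2 and a bar at the mean of the 2 arrays. *C1qa* was lower on every KpCKO array than on any WT array, *C3* and *Cfb* stood far above Con in M1, *C3ar1* stood far below it, and the 2 cultures of *Serping1* lay apart in KpCKO Con and M2.

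M1 stimulation raised the C1q chains by at most 1.78-fold, and this rise depended on how the arrays were scaled. Relative to the 75th percentile, the WT difference between M1 and Con was 0.56 for *C1qa* (adjusted p = 0.026), 0.81 for *C1qb* (adjusted p = 0.0025) and 0.67 for *C1qc* (adjusted p = 0.0084). Under quantile normalization the values were −0.24, −0.042 and −0.24, and with unscaled intensities they were −0.19, 0.059 and −0.074, none past the test. The median over all genes tested was 0.12 under the first scale, −0.09 under the second and −0.63 under the third. In KpCKO the chains were 0.83, 0.69 and 0.66 higher in M1 than in Con on the first scale. Under quantile normalization they were 0.39, 0.11 and 0.093, none past the test, and unscaled they were 0.54, which passed it, 0.40 and 0.36. Unscaled, the *C1qa* intensity was 51322 and 45918 in WT Con and 51189 and 35292 in WT M1, against 20534 and 14612 in KpCKO Con and 30307 and 20865 in KpCKO M1. The genotype difference of *C1qa* is visible in these intensities too. In M2, none of the C1q chains differed from Con past the test in either genotype, with differences between 0.05 and 0.30.

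*Serping1*, whose product inactivates C1r and C1s, rose with M1. It measured −2.55 and −2.65 in WT Con and 0.26 and 0.40 in WT M1, a difference of 2.93 ± 0.49 (7.64-fold, adjusted p = 0.0017). In KpCKO it measured −2.24 and −3.90 in Con and −0.18 and −0.48 in M1, a difference of 2.74 ± 0.49 (adjusted p = 0.0032). The M1 arrays were above the Con arrays in both genotypes without overlap. In M2, *Serping1* measured −2.58 and −2.90 in WT and −2.39 and −4.04 in KpCKO, and the differences from Con (−0.14 and −0.15) did not pass the test.

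The genotype difference of *Serping1* turned with the culture. In culture 1, KpCKO less WT was 0.31 in Con, −0.44 in M1 and 0.19 in M2, and in culture 2 it was −1.25, −0.88 and −1.15. The mean over the stimuli was −0.54 and did not pass the test (adjusted p = 0.23). The 7 stromal markers, genes of matrix-producing cells that do not carry the LysM-Cre deletion, differed among themselves. *Col1a1*, a chain of type I collagen, was 0.84 higher in KpCKO Con than in WT Con in culture 1 and −0.53 in culture 2. *Col1a2*, the other chain, gave 0.61 and −0.48, and *Col3a1*, of type III collagen, gave 0.31 and −0.58. *Dcn*, the small matrix proteoglycan decorin, gave −1.39 and −4.02. The difference of each of these 4, and of *Pdgfra*, was lower in culture 2 than in culture 1 in each stimulus. The growth factor receptor genes *Pdgfra* and *Pdgfrb* gave −0.19 and −0.59, and 0.90 and 0.040, in Con, but in M1 *Pdgfrb* was higher in culture 2 (0.12 and 0.36). *Lum*, the proteoglycan lumican, well above background on 1 of the 12 arrays, was higher in culture 2 in each stimulus (−2.50 and −2.37 in Con). The summed level of the 7 stromal markers in KpCKO Con less WT Con was 0.62 in culture 1 and −0.54 in culture 2, with 3 and 6 markers lower. Col1a1, Col1a2, Col3a1, Dcn, Pdgfra and Pdgfrb were above background on all 12 arrays. The part of stromal cells in the *Serping1* values was not tested.

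**Figure D2:**
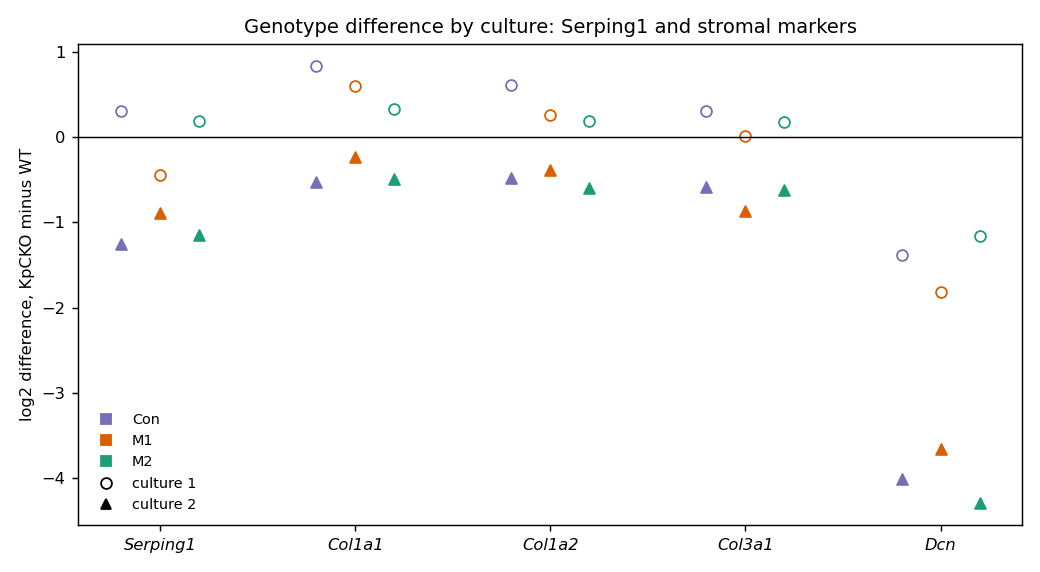
Log2 difference KpCKO minus WT (y axis) for *Serping1* and 4 of the 7 stromal marker genes (x axis, chosen after their values were seen) in Con, M1 and M2 (colours), with open circles for culture 1 and filled triangles for culture 2. For each gene plotted every triangle lies below every circle, which did not hold for the 3 markers left out (*Pdgfra*, *Pdgfrb* and *Lum*), and *Serping1* ran from 0.31 in culture 1 to −1.25 in culture 2 in Con. Within each stimulus *Pdgfra* too was lower in culture 2.

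*C3* and *Cfb* had the largest M1 responses of the 9 members. *C3*, the component cleaved by all pathways, measured 3.43 and 3.56 in WT Con and 9.03 and 9.44 in WT M1, a 53.5-fold rise (log2 difference 5.74 ± 0.26, adjusted p = 8.26e-06). In KpCKO it measured 2.72 and 2.75 in Con and 8.67 and 9.10 in M1, a 71.1-fold rise. *Cfb*, whose product factor B carries the protease of the alternative pathway convertase, measured −2.45 and −2.77 in WT Con and 6.77 and 6.89 in WT M1. In KpCKO it measured −4.38 and −4.32 in Con and 6.30 and 6.64 in M1. The signal was well above background on each of these arrays, and the rise was 696-fold in WT (9.44 ± 0.21, adjusted p = 1.8e-06) and 1803-fold in KpCKO (10.82 ± 0.21). The M1 arrays of both genes stood above all Con arrays, and the genotypes overlapped in M1 for *C3*. In M2, *C3* measured 3.71 and 4.60 in WT and 3.08 and 4.16 in KpCKO, 0.66 and 0.88 above Con, neither past the test (adjusted p = 0.14 and 0.081). A second probe of *C3* gave a log2 difference of 5.71 in WT and 5.93 in KpCKO.

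*Cfb* was lower in KpCKO in Con and in M2. The difference was −1.74 ± 0.21 in Con (3.33-fold, adjusted p = 0.011), but −0.95 and not past the test with normexp background correction (adjusted p = 0.079). In M2, where WT measured −2.68 and −3.13 and KpCKO −4.42 and −4.77, it was −1.69 ± 0.21 (3.23-fold, adjusted p = 0.012). In M1 the difference was −0.36 ± 0.21 (95% interval −0.85 to 0.12, adjusted p = 0.25), and with unscaled intensities it was 0.028. Both KpCKO arrays lay below both WT arrays in each stimulus. The M1 response of *Cfb* was 1.37 larger in KpCKO (95% interval 0.68 to 2.06), with 1.45 in culture 1 and 1.30 in culture 2, but the test of this difference across all genes did not pass (unadjusted p = 0.0022, adjusted p = 0.14). It was between 1.11 and 1.64 when 1 of the 8 arrays was left out. The *C3* difference was −0.76 ± 0.26 in Con, −0.35 in M1 and −0.53 in M2, and none of these passed the test within a stimulus. Its mean over the stimuli, −0.55 ± 0.15, lay at the threshold (adjusted p = 0.0497), and the second probe gave −0.65 (adjusted p = 0.031). That call was lost with quantile normalization (−0.48), normexp (−0.52) and unscaled intensities (−0.45). The mean of *C3* missed the threshold when any array but KpCKO M2 of culture 2 was left out.

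*Cfp* encodes properdin, which stabilises the C3 convertase and is made mostly by myeloid cells. It measured 6.35 and 6.39 in WT Con, 6.14 and 6.34 in WT M1 and 6.42 and 6.52 in WT M2, and 5.88 and 5.95, 5.76 and 5.86, and 6.48 and 6.30 in the KpCKO groups in the same order. KpCKO lay below WT without overlap in Con and M1 but not in M2. The difference was −0.46 ± 0.11 in Con (adjusted p = 0.11), −0.43 ± 0.11 in M1 (adjusted p = 0.044) and −0.08 ± 0.11 in M2, and its mean over the stimuli was −0.32 ± 0.06 (1.25-fold, adjusted p = 0.018). The M1 call was lost with quantile normalization (−0.20), normexp (−0.40) and unscaled intensities (−0.038). The call of the mean was lost with normexp (−0.26, adjusted p = 0.091) and unscaled intensities (−0.22, adjusted p = 0.10). M1 gave −0.13 in WT and −0.10 in KpCKO against Con, neither past the test, but −0.96 and −0.67 under quantile normalization, both past it. In M2, *Cfp* was 0.48 ± 0.11 higher than in Con in KpCKO (adjusted p = 0.040) and 0.10 in WT. The call in M2 was lost with quantile normalization (0.33), normexp (0.49) and unscaled intensities (0.52). It did not pass without any 1 of its 4 arrays, and the mean genotype call did not pass without any 1 of the 4 Con arrays or either WT M2 array (adjusted p 0.052 to 0.065).

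The receptors followed a different course. *C3ar1*, the receptor of C3a, measured 3.01 and 3.15 in WT Con and −0.24 and −0.16 in WT M1, a fall by 9.70-fold (log2 difference −3.28 ± 0.29, adjusted p = 9.04e-05). In KpCKO it measured 3.01 and 2.91 in Con and −0.37 and −1.46 in M1, a difference of −3.87 ± 0.29. A second probe gave −3.35 in WT and −3.78 in KpCKO. In M2 the levels of 3.11 and 3.12 in WT and 3.20 and 2.93 in KpCKO overlapped with Con. KpCKO less WT was −0.12 in Con, −0.71 in M1 and −0.05 in M2, and none passed the test. The M1 value came mostly from culture 2 (−1.30, against −0.13 in culture 1), and without KpCKO M1 of culture 1 it passed the test at −1.25 (adjusted p = 0.020).

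*C5ar1*, the receptor of C5a that drives chemotaxis and the oxidative burst, measured −1.01 and −0.87 in WT Con, −1.33 and −1.17 in WT M1 and −2.32 and −1.82 in WT M2. In KpCKO it measured −1.51 and −1.94 in Con, −2.47 and −2.58 in M1 and −2.92 and −3.10 in M2. KpCKO lay below WT without overlap in each stimulus, and M2 lay below Con in both genotypes. The genotype difference was −1.27 ± 0.21 in M1 (2.42-fold, adjusted p = 0.013), −0.78 ± 0.21 in Con (adjusted p = 0.14), −0.94 ± 0.21 in M2 (adjusted p = 0.097) and −0.997 ± 0.12 on average (adjusted p = 0.0030). *C5ar1* was the only member that passed the test in WT M2, by −1.13 ± 0.21 (2.19-fold lower, adjusted p = 0.015), and in KpCKO M2 the difference was −1.29 ± 0.21 (adjusted p = 0.015). In M1 it was −0.31 in WT, which did not pass the test (adjusted p = 0.23), and −0.80 ± 0.21 in KpCKO (adjusted p = 0.017). With unscaled intensities the WT value was −1.06 and passed it (adjusted p = 0.0026), and with normexp the KpCKO value was −0.56 and did not (adjusted p = 0.10). Both M2 calls were lost with normexp (−0.80 and −0.999). Neutrophils also carry this receptor. Of 9 neutrophil markers 6 were well above background on all 12 arrays, and the summed level was 16.6 in WT Con, 16.2 in KpCKO Con in culture 1, and 7.40 and 5.18 in culture 2. The *C5ar1* difference in Con was −0.49 in culture 1 and −1.07 in culture 2, where the neutrophil sums differed by −0.04 and −0.51 (log2). In M1 the *C5ar1* difference was −1.13 and −1.41, with the sums differing by 0.0066 and −0.52. In M2 it was −0.596 and −1.28, with −0.22 and −1.02. *S100a9* was the brightest of these markers on every array. In Con of culture 2, 6 of the 9 markers were lower in KpCKO, but *S100a8* (0.049), *Mpo* (1.36) and *Cxcr2* (1.499) were higher. The part of neutrophils in the *C5ar1* values was not tested.

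*Cfp* and *C5ar1* were also among the members lower in KpCKO with a window in the promoter table, and their 250 upstream bases (GRCm38.p6, minus strand, chrX:20931556-20931805 and chr7:16259339-16259588) are shown for the same motifs as above.
Cfp: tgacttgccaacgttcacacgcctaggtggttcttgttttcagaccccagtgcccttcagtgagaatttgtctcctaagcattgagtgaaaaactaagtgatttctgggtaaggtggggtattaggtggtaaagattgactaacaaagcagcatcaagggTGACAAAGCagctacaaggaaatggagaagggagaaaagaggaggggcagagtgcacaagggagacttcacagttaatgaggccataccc
C5ar1: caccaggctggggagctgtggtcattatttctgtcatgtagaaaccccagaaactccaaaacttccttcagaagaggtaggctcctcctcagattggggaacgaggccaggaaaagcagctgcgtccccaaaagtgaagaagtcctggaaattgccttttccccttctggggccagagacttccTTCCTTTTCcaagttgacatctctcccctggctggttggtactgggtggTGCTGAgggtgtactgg
In the *Cfp* window an antioxidant responsive element match, TGACAAAGC, began 90 bases before the start, and 2 PU.1 cores lay after the start. The *C5ar1* window held an interferon-stimulated response element match on the opposite strand (TTCCTTTTC as printed, 66 bases before the start), and a core Maf element 17 bases before the start. In the windows of *C3* and *C3ar1* only a core Maf element matched. Of the 6 members with a window, 2 held an antioxidant responsive element, 4 a core Maf element, 3 a PU.1 core, 1 an interferon-stimulated response element and 0 a gamma-activated site, where the shares over all windows were 8.56% for the interferon-stimulated response element and 8.30% for the gamma-activated site.

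Counted over the set, all 9 members had a negative difference between KpCKO and WT in each stimulus, with a median of −0.55 in Con, −0.66 after M1 and −0.53 after M2. Over all 22084 genes tested the medians were 0.0013, −0.084 and 0.020, and 10978, 12736 and 10305 genes had a negative difference. The 2 members that passed the test in Con (*C1qa* and *Cfb*) stood against 2.22% of all genes called in either direction, 1.4% higher and 0.82% lower. In M1, 4 members passed it (*C1qa*, *C1qb*, *Cfp* and *C5ar1*), against 16.2% of all genes, 7.53% higher and 8.67% lower. In M2, 2 passed it (*C1qa* and *Cfb*), against 1.93% of all genes, 1.3% higher and 0.634% lower. Averaged over the stimuli, 7 of 9 were lower, against 17.2% of all genes in either direction, 8.67% higher and 8.58% lower. *Serping1* and *C3ar1* were the exceptions. The 7 became 6 with quantile normalization and 5 with normexp or unscaled intensities. The 9 genes were named for their function with results of these data known, so the counts describe the set and no test was made over it. The negative signs held on most but not all settings: with unscaled intensities *C3* and *Cfb* in M1 were at 0.038 and 0.028, and with another background correction *Cfp* and *C3ar1* in M2 were at 0.060 and 0.054. Within single pairs of arrays, 8 and 9 members were lower in Con, 9 and 9 in M1, and 6 and 9 in M2 (culture 1 and culture 2). Signs within single pairs were not counted over all genes.

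**Figure D3:**
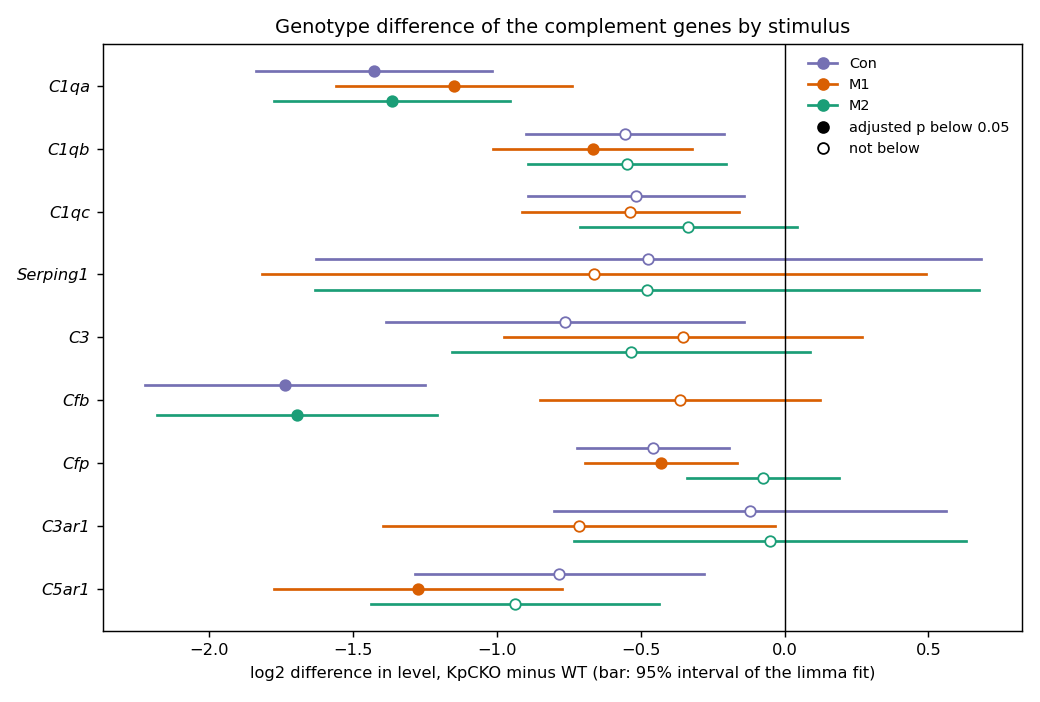
Log2 difference in level, KpCKO minus WT (x axis), of each complement gene (y axis) in Con, M1 and M2 (colours), with bars for the 95% interval of the limma fit and filled points for an adjusted p below 0.05. All points lie left of 0, and *C1qa* lies between −1.43 and −1.15 in the 3 stimuli.

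These within-stimulus calls rested on 2 arrays a group. In Con, 0 of 9 members passed the test when any 1 of the 4 arrays was left out, with *C1qa* between −1.54 and −1.31 and *Cfb* between −1.87 and −1.60. Over all genes, the calls in those fits numbered 96 to 171 in Con against 490 with all arrays, and 66 to 139 in M2 against 427. In M1 they numbered 1078 without WT M1 of culture 2 and 832 without KpCKO M1 of culture 1, against 3578. Of the members, at most 3 were called in M1, and 0 without WT M1 of culture 2, where *C1qa* was −1.07 (adjusted p = 0.057) and *C5ar1* −1.18 (adjusted p = 0.073). The M1 call of *C5ar1* was also lost without KpCKO M1 of culture 1 (−1.35), that of *C1qb* without either KpCKO M1 array (−0.74 and −0.59), and that of *Cfp* without any 1 of the 4 arrays. In M2, at most 1 was called, *C1qa* without KpCKO M2 of culture 1, and *Cfb* ranged from −1.90 to −1.49. Over the 3 stimuli, *C1qa*, *C1qb*, *Cfb* and *C5ar1* passed the test in each of the 12 fits without 1 array. Those 4 ranged from −1.38 to −1.24, from −0.64 to −0.54, from −1.35 to −1.18 and from −1.09 to −0.90. These fits too took the arrays of a mouse as independent.

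The response to the stimuli was counted in the same way. In WT M1, 6 members were higher and 1 lower, with 63.3% of all genes called, 34.4% higher and 28.9% lower. Under quantile normalization 3 members were higher and 2 lower, and with unscaled intensities 3 and 3. In KpCKO M1, 6 were higher and 2 lower, with 50.4% of all genes called, 24.8% higher and 25.6% lower, and under those settings 3 were higher and 3 lower, and 4 and 3. The members' medians were 0.67 in WT and 0.69 in KpCKO, beside 0.12 and 0.02 over all genes. In M2, 1 member passed the test in WT, with 16.9% of all genes called (8.64% higher, 8.3% lower), and 2 in KpCKO, with 10.3% called (5.71% higher, 4.62% lower). With 1 array left out, the WT M1 call of *C1qa* was lost in each of 4 fits (0.44 to 0.67), that of *C1qc* without WT Con of culture 1 (0.61) or WT M1 of culture 2 (0.52). In KpCKO M1 all 3 C1q chains lost theirs without KpCKO Con of culture 2 (0.72, 0.54 and 0.52), *C1qc* also without KpCKO M1 of culture 1 (0.61), and *C5ar1* without KpCKO Con of culture 1 (−0.54) or KpCKO M1 of culture 2 (−0.73). The M2 call of *C5ar1* held in WT without WT M2 of culture 2 and in KpCKO without KpCKO Con of culture 2, and was lost in the other fits. Whether the genotypes differed in their response was tested directly. For M1, 0 of 9 members passed limma's test (0.113% of all genes called, 0.0634% higher and 0.0498% lower), and *Cfb* alone had an unadjusted p under 0.05. For M2, 0 of 9 passed it (0.00906% called, all of them higher), and *Cfp* alone had an unadjusted p under 0.05. The 95% interval of the M1 response difference ran from −0.35 to 0.40 for *Cfp* and from −1.82 to 1.44 for *Serping1*, the narrowest and the widest of the members.

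**Figure D4:**
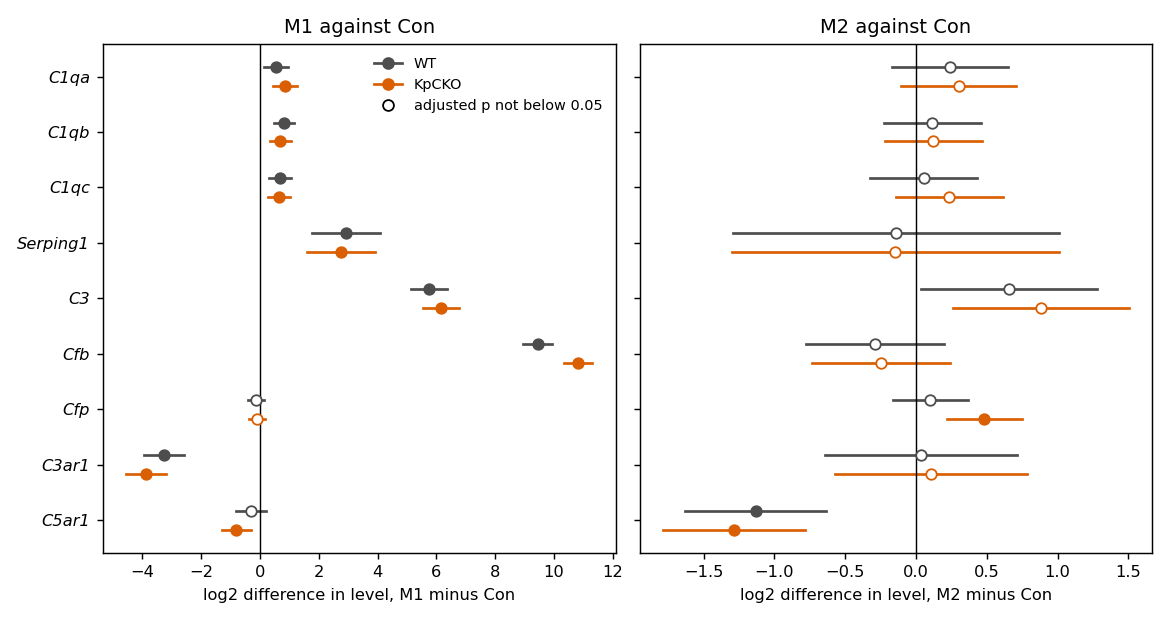
Log2 difference in level between a stimulus and Con (x axis; M1 left, M2 right, on different scales) for each gene (y axis) in WT (grey) and KpCKO (orange), with bars for the 95% interval and filled points for an adjusted p below 0.05. *Cfb* and *C3* lie far to the right in M1 and *C3ar1* far to the left, and in M2 *C5ar1* is called in both genotypes and *Cfp* in KpCKO.

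The pattern of each member over the 12 arrays was set beside that of 12110 named genes detected on all arrays, as the root mean square of the difference of centred log2 levels. *C1qb* and *C1qc* differed by 0.12, which made *C1qc* the gene nearest to *C1qb*, while *Bmi1* (0.12) was the nearest to *C1qc*. Neither was among the 3 genes nearest to *C1qa*, which were *Dcun1d5* (0.24), *Tmem176a* (0.27) and *Slc7a8* (0.29). Nearest to *C3* were *Gpr84* (0.27), *Gbp9* (0.35) and *Icam1* (0.38), and nearest to *Cfb* were *Ifi205* (0.68), *Gbp5* (0.73) and *Gbp2* (0.73). For *C5ar1* they were *Vav3* (0.28), *Ctla2a* (0.30) and *Ctla2b* (0.31), and for *C3ar1* they were *Wdr90*, *Lyl1* and *Appl2* (0.39 to 0.42). *Tmem106a* (0.12) was nearest to *Cfp* and *Igf2bp3* (0.36) to *Serping1*. The members' own spread, as the root mean square of their centred levels, was 0.26 for *Cfp*, 0.39 for *C1qc* and 4.89 for *Cfb*. A small distance can thus reflect a gene that varied little, and distances are not comparable between members.

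A further 44 complement genes were listed, of which 29 were tested. The remaining 15 were not, among them *C4a*, *Cfd*, *C8a*, *C4bp*, *Vtn*, *Cpn1* and *Csmd1*, which were well above background on no array. In WT M1, 14 of the 29 were higher and 7 lower (median 0.61), where 34.4% of all genes were higher and 28.9% lower (median 0.12). Among these, *Fcnb*, *Cd59b* and *Susd4* were not well above background on either WT M1 array, so no size is given for them, except that *Cd59b*, an inhibitor of the membrane attack complex, was at least 1.42-fold lower. The proteases of the C1 complex rose strongly. *C1s1* was 5.73 higher in WT (adjusted p = 4.55e-05) and 6.65 higher in KpCKO, *C1ra* 3.86 and 3.57, and *C1rb* 3.78 and 3.17. In WT Con, *C1s2* was not well above background, and its M1 level was at least 7.94-fold higher. Their substrates rose too, *C4b* by 2.87 and *C2* by 2.37 in WT, and so did *Hc*, the mouse C5 gene, by 5.05. *C1ra* and *C1rb*, *C1s1* and *C1s2*, and *C4a* and *C4b* are near-identical copies whose probes may share signal. *C2* lies next to *Cfb* and has a related sequence.

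Among receptors, *C5ar2*, the second C5a receptor, was lower in M1, at −3.65 in WT and −4.002 in KpCKO, and so was *Cd93*, a C-type lectin once described as a C1q receptor, at −1.59 and −2.01. *Itgax*, the α chain of complement receptor 4, was 2.16 higher in WT M1 and 0.54 in KpCKO M1 (not past the test), and *Itgb2*, the β chain shared with complement receptor 3, was 0.77 and 0.57 higher. The protease *Masp2* of the lectin pathway was lower in WT M1, at −2.87. In WT M2, 5 of 29 were higher and 4 lower, where 8.64% of all genes were higher and 8.3% lower. *Fcnb*, among the lower ones, was not well above background there. *Susd4*, a membrane inhibitor of complement, was 5.12 higher in WT M2 and 5.18 in KpCKO M2 (well above background on 1 of the 2 KpCKO Con arrays), *Itgax* 2.36 in WT, and *Cfi*, the protease that degrades C3b, 1.09 in WT and 0.84 in KpCKO. *Masp1* was at least 3.87-fold higher in WT M2 (adjusted p = 0.0497). In WT M2, *Cd93* was lower at −1.74 and *C5ar2* at −0.83.

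Between the genotypes, 3 of the 29 were higher in KpCKO and 6 lower over the 3 stimuli, with a median of −0.21, where 8.67% of all genes were higher and 8.58% lower (median −0.017). The 3 higher ones were *Itgax* (1.999, adjusted p = 0.00155), *Itgb2* (1.11) and *Clu* (1.002). *Itgb2* was 1.199, 0.998 and 1.12 higher, each past the test. *Itgax* was 2.99 higher in Con and 1.37 in M1, both past the test, and 1.64 in M2 (not past it). The 6 lower ones were *C4b* (−0.82), *Colec11* (−0.79), *Fcna* (−0.68), *C5ar2* (−0.45), *Cd93* (−0.33) and *Cr1l* (−0.27). The start of the classical and lectin pathways held 3 lower and 0 higher genes of 11 tested, and the soluble inhibitors 1 higher and 0 lower of 3. *C1ra*, *C1rb*, *C1s1* and *C2* did not pass the test between the genotypes, with means from −0.43 to 0.17.

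**Figure D5:**
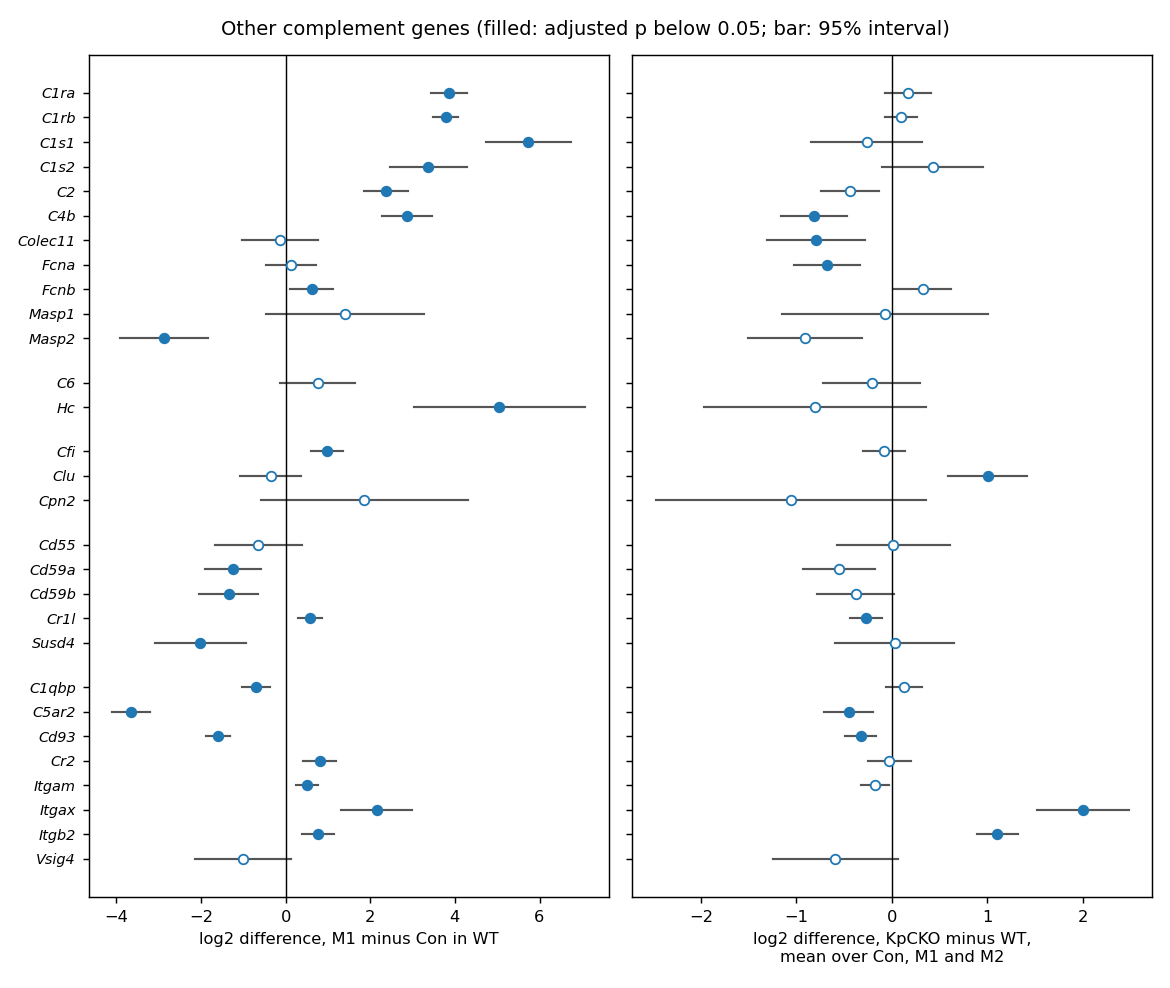
Log2 difference of the 29 other complement genes tested (y axis, grouped from top to bottom as start of the classical and lectin pathways, terminal components, soluble inhibitors, membrane inhibitors and receptors) between M1 and Con in WT (left) and between KpCKO and WT over the 3 stimuli (right), with bars for the 95% interval. C1s1, Hc, C1ra and C1rb lie farthest right in the left panel, and Itgax, Itgb2 and Clu are the filled points right of 0 in the right panel. Points of C1s2, Masp1, Fcnb, Cd59b and Susd4 are fitted values that include a group not well above background. The point of Cpn2 in the right panel does so too.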

How the data were processed

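RNA of BMDMs was labelled with Cy3 and hybridized to 12 one-colour Agilent arrays. The authors read the scans with Feature Extraction 10.7.3.1 (Agilent) and deposited background-subtracted intensities, not scaled between arrays. They also deposited a matrix of log2 values normalized with GeneSpring, which equals the log2 intensities less each array's 75th percentile, centred by probe (slopes 0.999623 to 1.00036 on 40749 probes). Here outlier spots were left out, spots of a probe averaged, and log2 intensities set relative to the 75th percentile. Accessions named 26690 of 41174 probes, and each gene was read from its brightest probe. Of 32301 genes or transcripts, 22367 passed a filter (well above background on each of the arrays of 1 group or more), and 22084 had no missing value and were tested with limma 3.58.1 in R 4.3.3, in 1 model of 6 groups and culture, with a Benjamini-Hochberg adjusted p of 0.05. The series' design text pairs the arrays by culture, and deviations from the group mean correlated at 0.162 to 0.597 between 15 pairs of groups of the same culture. With 2 arrays a side the smallest exact permutation p is 0.333, so no such test is given. P-values rest on the scatter left after the shift between the 2 cultures was removed, pooled over the 6 groups and moderated across genes. The model had no term for the mouse, so a mean over the stimuli took the 3 arrays of a mouse as independent. The fit was also run on simulated data, but these were drawn independently for each array and so cannot test that assumption. The members, gene lists and motifs were chosen with earlier results of these data known. The genes named are the members, the listed complement genes, markers and check genes, and the 3 genes nearest to each member's pattern. One item of the complement list is not reported here. Tables and plots used Python 3.11.15, pandas 2.3.3 and matplotlib 3.10.9.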

Additional observations from a re-analysis of the deposited data

How the results depend on the processing

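In KpCKO against WT, the 2 members called in Con became 1 with normexp background correction, 0 when only the 4 arrays compared were fitted, and 0 by the methods' t-test after adjustment (4 before it). The 4 called in M1 became 2 with quantile normalization, normexp or unscaled intensities, and 0 with only the arrays compared or the adjusted t-test. The 2 called in M2 became 0 in those last fits. In KpCKO M1 against Con, 8 became 0 with the adjusted t-test and 4 before adjustment. In M2 against Con, the 1 called in WT became 0 with normexp and the adjusted t-test, and the 2 called in KpCKO became 1 with quantile normalization, unscaled intensities, no filter on dim probes or without the pairing block by culture, and 0 with normexp, only the arrays compared or the adjusted t-test. Without the block, the other counts of members changed by at most 1. Unscaled intensities were added as a setting after the C1q values were seen.

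Without 1 array, 0 to 0 members were called in Con between the genotypes, 0 to 3 in M1, 0 to 1 in M2, 4 to 7 over the stimuli, 5 to 7 in KpCKO M1 against Con, and 0 to 1 in M2 against Con in either genotype. The values that changed sign were *C1qa*, *C1qb* and *C1qc* in WT M1 (−0.24, −0.042 and −0.24 by quantile, *C1qa* −0.19 and *C1qc* −0.074 unscaled), and genotype differences of *C3* and *Cfb* in M1 (0.038 and 0.028, unscaled), *Cfp* and *C3ar1* in M2 (0.060 and 0.054, normexp). Without 1 array, *C3ar1* ran from −0.33 to 0.084 in Con and −0.18 to 0.083 in M2, *Serping1* from −1.08 to 0.13 in both, and *Cfp* from −0.22 to 0.066 in M2. The cause was not tested. The t-test was not run on the mean over stimuli or on the response differences.

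Over all genes, the 490, 3578 and 427 calls between the genotypes in Con, M1 and M2 and the 3808 over the stimuli became 185, 1064, 242 and 1921 with normexp, 197, 1207, 195 and 1862 without the block, and 0 in Con, M1 and M2 with only the arrays compared or the adjusted t-test (1611 in Con and 1732 in M2 before adjustment). Without the filter there were 258 in Con and 234 in M2, and unscaled there were 5698 in M1. The 3740 and 2282 calls of M2 against Con in WT and KpCKO became 1823 and 767 with normexp, 2357 and 1229 without the filter, 1724 and 899 without the block, and 2 and 0 with the adjusted t-test. With only the arrays compared, there was 1 in KpCKO. In M1 against Con the adjusted t-test called 2947 in WT and 0 in KpCKO (6499 before adjustment, where limma called 11122), and normexp 7137 in KpCKO. The 25 genes whose M1 response differed numbered 0 to 119 where a setting with all arrays moved them, and 0 to 545 without 1 array (545 without WT M1 of culture 1, at most 5 otherwise). The 2 for M2 numbered 0 to 2.

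With 2 arrays a group and the same mice in each stimulus, sex, mouse and culture cannot be told apart, nor can stimulus and slide.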
